A study of Mus musculus with 18 samples.

Results

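Lif, Clcf1, Il11, Il6, Lifr, Il6st, Osmr, Il11ra1, Il6ra and Socs3 were followed in epidermal cells of mouse skin through chemical carcinogenesis, with and without Zfp36. These 10 genes were taken by name, from the gene names of the deposited count table, out of the 52636 genes it lists, and each name matched 1 row. Lif, Clcf1 and Il11 transcripts were more abundant in squamous tumors lacking Zfp36 in the epidermis than in adjacent treated skin of the same genotype, and Il11ra1 transcripts were less abundant. In control tumors Clcf1 was higher and Il11ra1 lower than in treated skin. Lif averaged 80.7 CPM (read counts scaled to library size) in tumors lacking Zfp36 and 13.3 CPM in control tumors, with no overlap between the 3 libraries of each genotype, but its adjusted p over all genes was 0.157. Such a separation was shared by 17.9% of the genes tested.

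Zfp36 encodes tristetraprolin (TTP), which binds AU-rich elements in the 3′ untranslated region (3′UTR) of messenger RNAs and speeds their decay. Zfp36 ΔEP mice (labelled ΔK14, DK14 in the column names) carried floxed Zfp36 with a Cre driven by the keratin 14 promoter, which is active in basal keratinocytes and in epithelia that descend from them. Their littermate controls were Zfp36 fl/fl without the Cre, and all mice were C57BL/6 adults. Groups were named mock for skin given no carcinogen, treated for skin without tumor next to tumors of mice given DMBA, a mutagen, followed by repeated TPA, a phorbol ester that promotes tumors, and tumor for the squamous tumors themselves. Each stage and genotype had 3 columns of gene counts, 18 in all. The labels describe whole skin as the source and keratinocytes as the cell type, and the study's methods describe a sort for EpCAM+ CD45- CD140a- CD31- cells. Nothing in the labels says that the replicates of a group came from separate animals, so the p-values measure the spread between these libraries.

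Replicates 2 and 3 of mock ΔEP did not differ in the count of any gene and entered as 1 library, so 17 libraries were analysed, 2 of them mock ΔEP. Total counts ran from 2808550 to 9617985 per library, with a median of 5567614. Zfp36 itself was at 152, 716 and 622 CPM in mock fl/fl skin against 17.3 and 38.6 in mock ΔEP, at 368, 505 and 256 in treated fl/fl against 26.7, 29.8 and 15.2 in treated ΔEP, and at 231, 177 and 242 in fl/fl tumors against 18.6, 12.9 and 10.1 in ΔEP tumors. Genotypes did not overlap at any stage, and the log2 fold change (log2FC ± SE) of ΔEP against fl/fl was −4.13 ± 0.86 in mock skin (edgeR adjusted p = 1), −3.99 ± 0.35 in treated skin (adjusted p = 0.0391) and −4.10 ± 0.30 in tumors (adjusted p = 0.00882). In mock skin the adjusted p of Zfp36 was 0.0418 without both mock replicates 1. The call on Zfp36 was lost in treated skin without fl/fl replicate 1 (adjusted p = 0.265), fl/fl replicate 2 (0.151) or ΔEP replicate 2 (0.273), and in tumors when ΔEP replicate 2 (0.21), ΔEP replicate 3 (0.0755) or fl/fl replicate 3 (0.0574) was left out, with log2FC from −4.19 to −3.72 and from −4.02 to −3.86. An antisense gene, Gm44710, shares 125 exon bases with Zfp36, and the strand setting of the counting is not given in the sources used here.

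Replicate 1 of both mock groups stood apart from the other mock libraries. Their summed level of 7 basal keratinocyte markers (Krt5, Krt14, Col17a1, Itga6, Itgb4, Trp63, Epcam) was 3306 and 3402 CPM against 15369 to 17284 CPM, and that of 6 markers of differentiating keratinocytes was 579 and 702 CPM against 5716 to 7642 CPM. Tumor fl/fl replicate 1, the library with the lowest total count, stood apart from the other fl/fl tumors. Its basal keratinocyte sum was 33655 CPM against 9195 and 9322 CPM in the other fl/fl tumors and 26763 to 28796 CPM in ΔEP tumors. Treated skin spanned 3432 to 12662 CPM. All 7 basal keratinocyte markers had counts in every library. Calls on the members, the levels per length and the correlations are given with and without these libraries where they change.

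LIF, CLCF1, IL-11 and IL-6 are cytokines of the IL-6 family, which share the signalling receptor chain gp130, the product of Il6st. LIF binds the LIF receptor (Lifr), which pairs with gp130, and CLCF1 signals through CNTFR together with LIFR and gp130. IL-11 and IL-6 each bind a non-signalling receptor of their own (Il11ra1, Il6ra) that engages gp130, and the oncostatin M receptor (Osmr) is a signalling partner of gp130. These receptors activate JAK kinases and STAT3, and SOCS3 is a STAT3-induced protein that binds gp130 and dampens the signal. Several cytokine messages of the family are short-lived through AU-rich elements.

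The 3′UTRs of the ligands carried such elements and those of the receptors did not hold the heptamer UAUUUAU, a core to which TTP binds. The longest annotated 3′UTR of each gene was searched on the transcript strand (GENCODE vM21 on GRCm38, the build also called mm10), counting overlapping matches. Lif had 5 heptamers in 3180 bases, Clcf1 4 in 922 bases, Il11 6 in 1194 bases, and Il6 1 in 1668 bases. Socs3 had 2 in 1474 bases. Lifr, Il6st, Osmr, Il11ra1 and Il6ra had 0. At least 1 heptamer was present in 5 of the 10 genes and in 27.6% of the 20939 genes with an annotated 3′UTR. The nonamer UUAUUUAUU was present in Lif (2 matches), Clcf1 (2) and Il11 (5), or 3 of 10 genes, and in 7.66% of all genes. The pentamer AUUUA was in every member but Il11ra1 and in 65.2% of all genes. The longer motifs contain the shorter ones, and a match shows that the letters are present, not that TTP binds there.

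The sites are printed because the heptamer was present in the ligand messages and in Socs3 but in none of the receptor messages. Heptamers are in capitals and 3 flanking bases in lower case, 5′ to 3′ on the transcript strand. The pair in Lif lies at chr11:4270477-4270506 on the plus strand, those in Clcf1 at chr19:4223402-4223418 and chr19:4223423-4223449 on the plus strand, those in Il11 at chr7:4773502-4773522 and chr7:4773369-4773391 on the minus strand, that in Il6 at chr5:30019736-30019748 on the plus strand and that in Socs3 at chr11:117966141-117966159 on the minus strand.
Lif: gucUAUUUAUuacuauguccUAUUUAUauu
Clcf1, first site: uaaUAUUUAUUUAUuug
Clcf1, second site: uguUAUUUAUuagaugaUAUUUAUugc
Il11, first site: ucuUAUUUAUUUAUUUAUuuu
Il11, second site: gcuUAUUUAUacuUAUUUAUuua
Il6: ugaUAUUUAUuau
Socs3: auaUAUUUAUAUUUAUacu
The sixth heptamer of Il11 lies at chr7:4773246-4773258 and is not printed. In Il11 the first site holds 3 overlapping heptamers and begins at base 45 of the 3′UTR, close to the stop codon. In Clcf1 both sites lie between bases 834 and 881 of a 3′UTR of 922 bases. In Lif the other 3 heptamers lie past base 2713, near the end. Within GRCm38, Lif (ENSMUSG00000034394) spans chr11:4257557-4272514, Clcf1 (ENSMUSG00000040663) chr19:4214238-4223490, Il11 (ENSMUSG00000004371) chr7:4772373-4782859, Il6 (ENSMUSG00000025746) chr5:30013114-30019981 and Socs3 (ENSMUSG00000053113) chr11:117966079-117970047. The receptor genes are Lifr (ENSMUSG00000054263, chr15:7090614-7197489), Il6st (ENSMUSG00000021756, chr13:112464070-112510086), Osmr (ENSMUSG00000022146, chr15:6813577-6874969), Il11ra1 (ENSMUSG00000073889, chr4:41699989-41769474) and Il6ra (ENSMUSG00000027947, chr3:89864059-89913196).

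**Figure D1:**
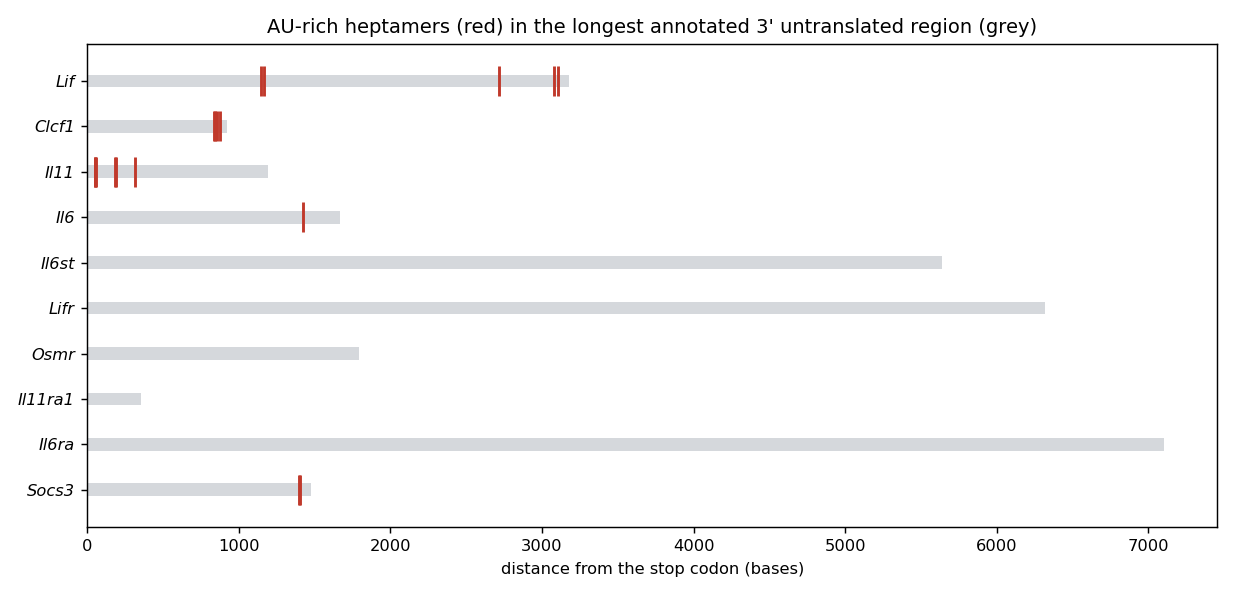
Positions of AU-rich heptamers (red) along the longest annotated 3′UTR of each gene, in bases from the stop codon, drawn to scale for the 10 genes. Lif, Clcf1 and Il11 carry several marks, Il6 carries 1 and Socs3 carries 2, and the 5 receptor genes carry none.

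Clcf1 was the ligand with the largest difference between tumors and skin. It was at 1.89, 0.589 and 2.80 CPM in mock fl/fl skin, 4.33 and 3.24 in mock ΔEP, 2.82, 3.29 and 5.23 in treated fl/fl, and 3.05, 5.87 and 3.55 in treated ΔEP. In tumors it was at 88.3, 88.6 and 80.6 CPM in fl/fl and at 74.7, 303 and 476 CPM in ΔEP. Every tumor library was above every skin library, and the ΔEP tumors were spread far more widely than the fl/fl tumors. Separation of tumors from skin was common among all genes tested. Within a genotype, tumors did not overlap with treated skin, in either direction, in 45.9% of genes in fl/fl and 52.2% in ΔEP. Against mock skin the shares were 32.4% and 52.9%. The share with all tumors above all skin was not computed. Against treated skin the log2FC was 4.46 ± 0.28 in fl/fl (edgeR adjusted p = 0.000532) and 5.95 ± 0.68 in ΔEP (adjusted p = 0.000719). Clcf1 also shares 311 exon bases on the same strand with an annotated gene, AC109138.7, which has no row in the table used, so its reads could have been counted for Clcf1.

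Lif was low in skin and high in ΔEP tumors. It was at 6.88, 2.36 and 1.35 CPM in mock fl/fl, 8.66 and 5.05 in mock ΔEP, 3.91, 3.51 and 7.06 in treated fl/fl, and 6.28, 15.5 and 5.75 in treated ΔEP. The fl/fl tumors were at 17.1, 7.33 and 15.4 CPM, above every fl/fl skin library but overlapping with ΔEP skin, whereas the ΔEP tumors were at 46.5, 72.2 and 123 CPM, above every other library. Lif rose in ΔEP tumors against treated ΔEP skin (log2FC 2.99 ± 0.48, edgeR adjusted p = 0.00248) and against mock ΔEP skin (3.44 ± 0.53, adjusted p = 0.0142). In fl/fl tumors the values were 1.37 ± 0.44 against treated skin (adjusted p = 0.0563) and 1.84 ± 0.67 against mock skin (adjusted p = 0.138), neither past the threshold.

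Il11 had few counts, 1 to 12 per skin library, equal to 0.196 to 1.62 CPM. In fl/fl tumors it had 9, 16 and 8 counts (4.52, 2.44 and 2.62 CPM), and in ΔEP tumors 19, 38 and 65 counts (4.25, 6.90 and 12.3 CPM). All 6 tumor libraries were above all skin libraries. Within a genotype, 45.9% of all genes tested in fl/fl and 52.2% in ΔEP did not overlap between tumors and treated skin, in either direction. The share with all tumors above all skin was not computed. The log2FC against treated skin was 2.74 ± 0.51 in ΔEP (edgeR adjusted p = 0.00436) and 1.72 ± 0.60 in fl/fl (adjusted p = 0.0693). Counts this low leave each library's value with a wide counting error. Among the comparisons of 2 groups, Il11 passed the filter on low counts only in those with tumors, where it was high. Between mock and treated groups it fell under that filter, so of these comparisons it could be called only in those with tumors.

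Il6 did not follow the other ligands. It ranged from 4.02 to 22.1 CPM in skin and from 3.97 to 10.8 CPM in tumors, the fl/fl tumors being at 10.5, 3.97 and 7.54 CPM and the ΔEP tumors at 7.16, 9.62 and 10.8 CPM. Its highest values were in mock fl/fl replicate 1 (22.1 CPM) and mock ΔEP replicate 1 (17.6 CPM), the 2 mock libraries that stood apart. It was called in none of the 12 comparisons and interactions.

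**Figure D2:**
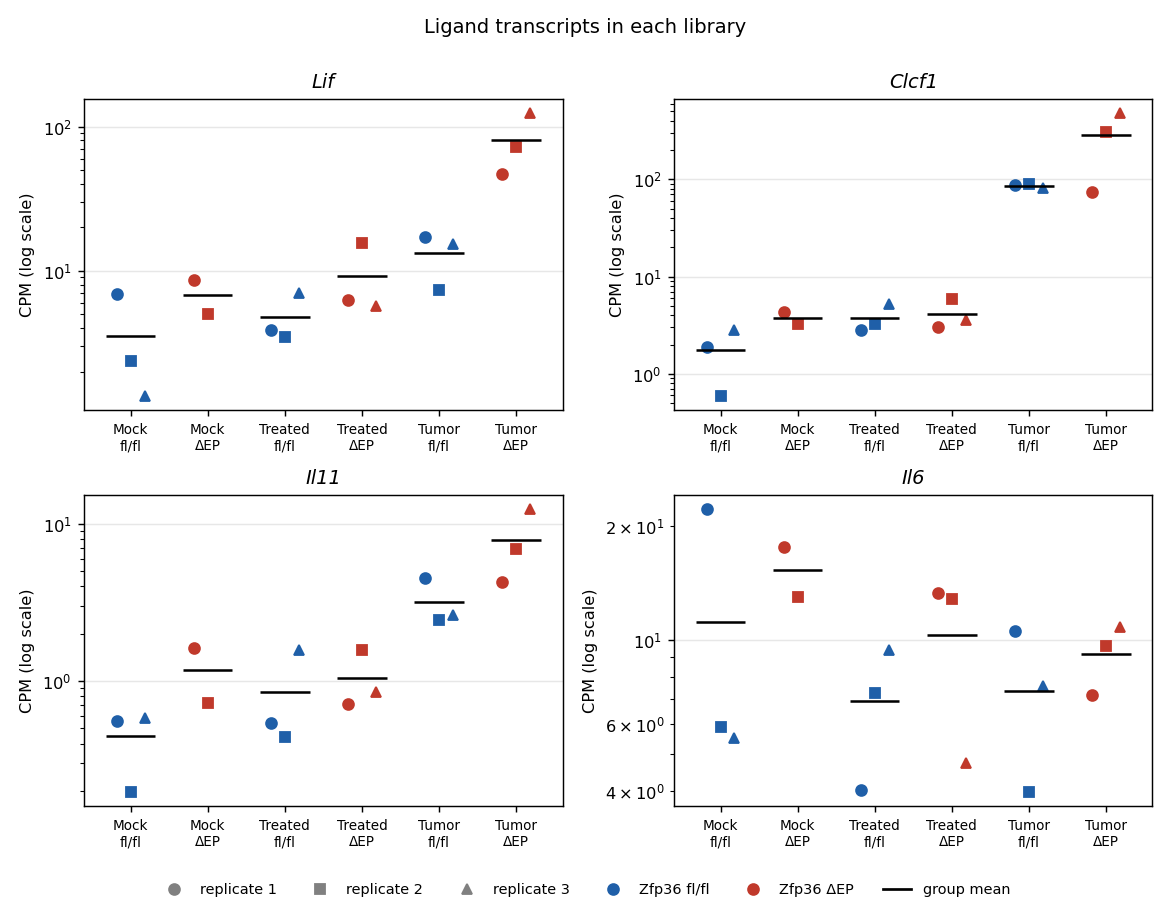
CPM of Lif, Clcf1, Il11 and Il6 in each of the 17 libraries on a log axis, grouped by stage and genotype, with a symbol for each replicate and a line for the group mean. Clcf1 lies at 74.7 to 476 CPM in tumors against 0.589 to 5.87 CPM in skin, Lif separates ΔEP tumors from all other groups, and Il6 spans 3.97 to 10.8 CPM in tumors against 4.02 to 22.1 CPM in skin.

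Il11ra1, the specific receptor of IL-11, was the only member that was called lower in tumors of both genotypes. It was at 23.2, 36.9 and 38.0 CPM in mock fl/fl, 28.7 and 39.7 in mock ΔEP, 36.4, 43.2 and 40.1 in treated fl/fl, and 24.9, 40.7 and 18.4 in treated ΔEP. Tumors were at 3.01, 1.99 and 2.95 CPM in fl/fl and at 0.895, 4.36 and 2.85 CPM in ΔEP, which is 4 to 24 counts per library. No tumor library overlapped with skin. Within a genotype, 45.9% of genes tested in fl/fl and 52.2% in ΔEP were separate between tumors and treated skin, in either direction. The share of genes with all tumors apart from all skin was not computed. The log2FC against treated skin was −4.00 ± 0.27 in fl/fl (edgeR adjusted p = 0.000649) and −3.45 ± 0.50 in ΔEP (adjusted p = 0.00171). In ΔEP mice its transcript fell where that of its ligand rose. Il11ra1 shares 8 exon bases with Ccl27a on the other strand, which was at 9.33 to 126 CPM in skin and 1.12 to 4.89 CPM in tumors, and its near-identical copy Il11ra2 was at 0 to 2.63 CPM. The part of reads shared with either gene was not tested. The summed level of 8 fibroblast markers was 455 to 1852 CPM in skin and 85.7 to 457 CPM in tumors, with Col1a1, Col3a1 and Dcn above 0 in every library, and its part in the Il11ra1 values was not tested.

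Lifr, the signalling receptor of LIF and CLCF1, varied widely within groups. It was at 7.99, 293 and 368 CPM in mock fl/fl skin, 14.6 and 112 in mock ΔEP, 80.9, 77.0 and 34.9 in treated fl/fl and 13.8, 55.4 and 169 in treated ΔEP. The fl/fl tumors were at 22.1, 113 and 65.9 CPM and the ΔEP tumors at 21.5, 25.0 and 15.0 CPM. Only tumor fl/fl replicate 1 overlapped with the ΔEP tumors. In ΔEP tumors the log2FC against treated skin was −2.02 ± 0.71 (edgeR adjusted p = 0.0527). Because these are bulk libraries, fewer cells expressing a gene and less RNA per cell cannot be told apart.

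Osmr, like Lifr, was lower in tumor fl/fl replicate 1 than in the other fl/fl tumors. It was at 53.7, 296 and 274 CPM in fl/fl tumors and at 87.9, 102 and 111 CPM in ΔEP tumors, so that tumor fl/fl replicate 1 was the lowest of the 6 and replicates 2 and 3 were the highest. In skin it ranged from 24.1 to 188 CPM. The log2FC of fl/fl tumors against treated skin was 1.48 ± 0.54 (edgeR adjusted p = 0.079), and without tumor fl/fl replicate 1 it was 1.93 (adjusted p = 0.000176).

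Il6st, which encodes gp130, was present at 68.4 CPM or more in every library. It was at 142, 209.5 and 159 CPM in fl/fl tumors and 125, 216 and 218 CPM in ΔEP tumors, against 113, 126 and 89.8 CPM in treated fl/fl skin and 68.4, 99.5 and 158 CPM in treated ΔEP skin. The fl/fl tumors lay above all treated fl/fl libraries, in a comparison where 45.9% of genes tested did not overlap. The log2FC of 0.61 ± 0.21 in fl/fl (edgeR adjusted p = 0.0659) and that of 0.69 ± 0.31 in ΔEP (adjusted p = 0.117) were not past the threshold. Mock skin spanned both, from 79.0 to 359 CPM.

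Il6ra, the specific receptor of IL-6, and Socs3, the feedback inhibitor, were highest in the mock libraries other than replicate 1. Il6ra was at 15.2, 179.5 and 279.9 CPM in mock fl/fl and 24.4 and 129 CPM in mock ΔEP, and at 10.2 to 52.4 CPM in every treated and tumor library. Socs3 was at 37.3, 204 and 402 CPM in mock fl/fl and 40.6 and 359 CPM in mock ΔEP. It was at 85.3, 37.6 and 40.3 CPM in fl/fl tumors and at 68.7, 75.7 and 100.5 CPM in ΔEP tumors, which overlap. The log2FC between tumor genotypes was 0.47 ± 0.33 (edgeR adjusted p = 0.543). The antisense gene Gm42809 shares 242 exon bases with Il6ra.

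**Figure D3:**
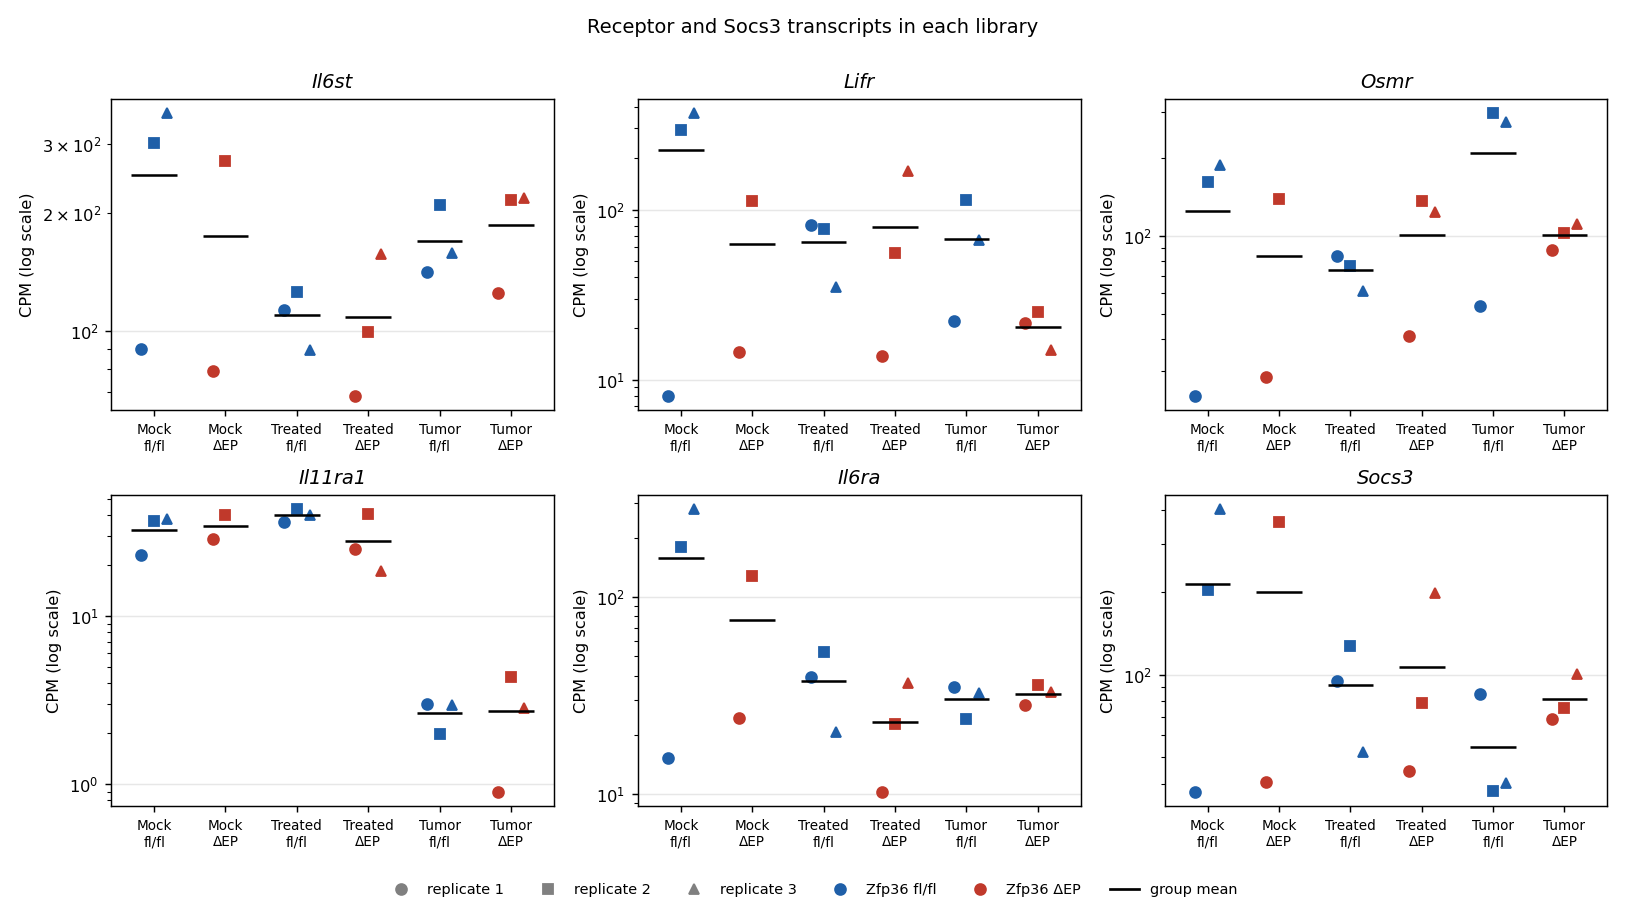
CPM of Lifr, Il6st, Osmr, Il11ra1, Il6ra and Socs3 in each of the 17 libraries on a log axis, grouped by stage and genotype, with a symbol for each replicate and a line for the group mean. Il11ra1 drops to 0.895 to 4.36 CPM in tumors, and replicate 1 of each mock group lies under the other mock libraries for Lifr, Il6st, Osmr, Il6ra and Socs3.

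Divided by the merged length of all annotated exons of each gene, the order of the members changed between skin and tumors. For Osmr this length is 12113 bases, against 5491 for its longest transcript. On the scale of CPM per kilobase of merged exons, Socs3 had the highest mean level and Il11 the lowest in all 4 skin groups. Lif and Clcf1 were in places 8 and 9 there. In fl/fl tumors Clcf1 came first (22.6 ± 1.18 CPM per kilobase, SD, n = 3), followed by Socs3 (18.8 ± 9.27) and Osmr (17.2 ± 11.1), 3 levels that do not differ beyond their spread. In ΔEP tumors Clcf1 again came first (74.8 ± 52.9), followed by Socs3 (28.2 ± 5.79) and Lif (18.5 ± 8.98), and the libraries of these neighbours overlapped. Lif was in place 7 in fl/fl tumors (3.05 ± 1.20), and Il11ra1 was last in both tumor groups. With the longest transcript of each gene as its length, 40 of the 60 places stayed the same. On that scale Osmr (37.9 CPM per kilobase) came first in fl/fl tumors, before Clcf1 (24.2). Without tumor fl/fl replicate 1, Osmr (23.5 CPM per kilobase) and Clcf1 (22.2) led in fl/fl tumors and Socs3 (13.5) came after Il6st (16.6).

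The first comparison asked how tumors differed from the treated skin around them, within each genotype. Calls needed an adjusted p under 0.05 and a change over 2-fold. In fl/fl mice 2 of the 10 members were called, Clcf1 higher and Il11ra1 lower, while 18% of the 15362 genes tested were called. In ΔEP mice 4 of 10 were called, Clcf1, Lif and Il11 higher and Il11ra1 lower, while 26% of 15289 genes were called. Il11 passed the filter on low counts through the tumor libraries. The median log2FC of the members was 0.34 in fl/fl and 0.15 in ΔEP, against −0.02 and −0.03 over all genes tested. These calls held when any library was left out and under every other setting tried. Without tumor fl/fl replicate 1, 4 members were called in fl/fl, with Osmr added among those higher and Socs3 (−1.24, edgeR adjusted p = 0.0204) among those lower, while 24.3% of all genes were called.

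Against mock skin the calls depended on single libraries, except that on Clcf1 in fl/fl mice, which held under all 12 alternatives. In fl/fl mice 2 of 10 members were called, with 4.11% of 15394 genes called: Clcf1 (log2FC 5.49 ± 0.51, edgeR adjusted p = 0.00671) and Il11ra1 (−3.68 ± 0.39, adjusted p = 0.00765). Without mock fl/fl replicate 1, 7 were called, with 21% of all genes tested, and Lif and Il11 were added among those higher and Lifr, Il6ra and Socs3 among those lower. Without mock fl/fl replicate 2, 1 was called, with 0.181% of all genes, as Il11ra1 had an adjusted p of 0.0542. In ΔEP mice 4 of 10 were called, with 14.3% of 15027 genes called: Lif, Clcf1 (6.10 ± 0.92, adjusted p = 0.0135), Il11 (2.57 ± 0.68, adjusted p = 0.0492) and Il11ra1 (−3.72 ± 0.55, adjusted p = 0.0126). Without tumor ΔEP replicate 2, 0 of these and 0.709% of all genes were called by edgeR, with adjusted p of 0.0673, 0.065, 0.125 and 0.061, and without tumor ΔEP replicate 3, 2 were called, Lif and Clcf1, with 1.51% of all genes. Il11 was also lost without tumor ΔEP replicate 1 (adjusted p = 0.0737) and without mock ΔEP replicate 2 (0.0587). Without mock ΔEP replicate 1, 7 were called, with 28.1% of all genes. The comparisons of tumors with mock and with treated skin use the same tumor libraries and are not independent of each other.

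Treated skin against mock skin gave no call. In fl/fl mice 0 of 9 members tested were called by edgeR, with 0% of 16601 genes called. Only Il6st had an unadjusted p under 0.05 (1 of 9 members, log2FC −1.17 ± 0.48, adjusted p = 0.888), and DESeq2 called 0 members. Lifr was at −1.77 ± 1.10, Il6ra at −2.06 ± 0.92, Socs3 at −1.20 ± 0.77 and Osmr at −0.73 ± 0.66. Without mock fl/fl replicate 1, which had the lowest basal keratinocyte sum of the mock libraries, 15.1% of the genes tested were called, and among them 5 of 9 members, all lower in treated skin: Lifr (−2.33, adjusted p = 0.00391), Il6st (−1.56, adjusted p = 0.00198), Osmr (−1.21, adjusted p = 0.00381), Il6ra (−2.60, adjusted p = 0.00345) and Socs3 (−1.70, adjusted p = 0.0187). In ΔEP mice 0 of 9 members were called by edgeR, with 0% of 15891 genes called, 0 with an unadjusted p under 0.05 and 0 by DESeq2. Il6ra had a log2FC of −1.73 ± 0.76 there (edgeR adjusted p = 1).

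The genotypes were compared at each stage to ask what loss of Zfp36 in the epidermis changed. In mock skin edgeR called 0 of 9 members, with 0% of 15920 genes called, and in treated skin 0 of 9, with 0.00616% of 16232 genes called. In both, 0 members had an unadjusted p under 0.05 and DESeq2 called 0. Without mock fl/fl replicate 1, 2 of 9 members had an unadjusted edgeR p under 0.05 in mock skin, as did 5.58% of all genes, and 0 were called. Lif had a log2FC of 0.92 ± 0.80 in mock skin and of 0.91 ± 0.46 in treated skin (edgeR adjusted p = 0.904), and Clcf1 had 1.07 ± 0.72 in mock skin.

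In tumors edgeR called 0 of 10 members between ΔEP and fl/fl, with 0.0284% of 14067 genes called. By unadjusted p, 4 members were under 0.05, as were 14% of all genes tested. Lif had a log2FC of 2.51 ± 0.44 (adjusted p = 0.157), Lifr −1.87 ± 0.52 (adjusted p = 0.229), Clcf1 1.58 ± 0.54 (adjusted p = 0.265) and Il11 1.22 ± 0.48 (adjusted p = 0.324). Osmr was at −1.20 ± 0.53 (adjusted p = 0.361). Lif was the only member whose genotypes did not overlap in tumors, a separation that 17.9% of the genes tested shared. DESeq2 called 2.6% of the genes and 2 members, Lif (2.49, adjusted p = 2.13e-05) and Lifr (−1.86, adjusted p = 0.0216). Over the 12 alternatives to the edgeR fit the log2FC of Lif lay between 2.11 and 2.80 and its adjusted p between 9.54e-16 and 0.629.

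Calls by edgeR between tumor genotypes, over all genes and among the members, were far fewer with tumor fl/fl replicate 1 than without it. Without it edgeR called 16.9% of the genes tested and 3 of the 10 members, Lif (2.79, adjusted p = 0.00222), Lifr (−2.24, adjusted p = 0.0006) and Osmr (−1.61, adjusted p = 0.00023). Lifr and Osmr were low in the 4 tumors with a basal keratinocyte sum of 26763 CPM or more and higher in the others. Those 4 were fl/fl replicate 1 and the ΔEP tumors. Lif was at 17.1 CPM in tumor fl/fl replicate 1, at 7.33 and 15.4 CPM in the other fl/fl tumors and at 46.5 CPM in the lowest ΔEP tumor. The summed level of 10 leukocyte markers was 97.8 CPM in tumor fl/fl replicate 1, 17.1 and 31.8 CPM in the other fl/fl tumors and 93.3 to 107 CPM in ΔEP tumors. Of the leukocyte markers Ptprc, which encodes CD45, was at most 1.51 CPM in any library and 0 in 4 of 17, and Cd3e was 0 in 13, while Cd74 and S100a4 reached 172 and 63.7 CPM. The part of these cell markers in the member values was not tested.

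**Figure D4:**
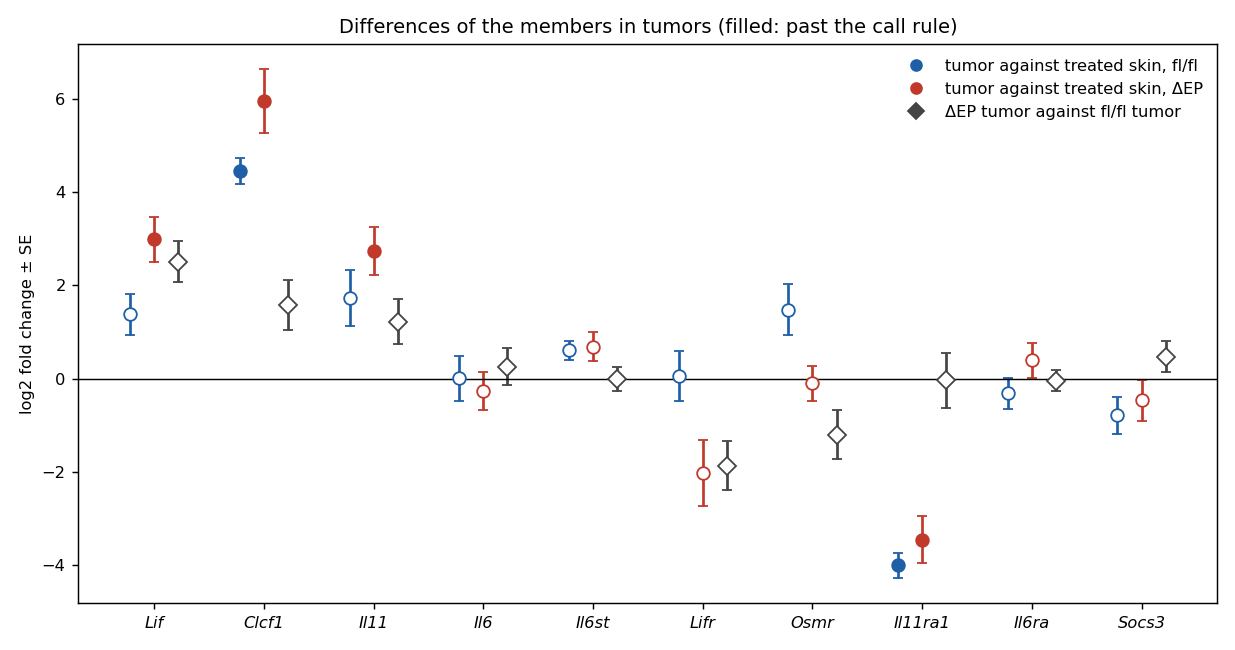
Log2 fold change with its standard error for the 10 members in tumors: ΔEP against fl/fl tumors, and tumors against treated skin in each genotype. Filled symbols are past the call rule and the line at 0 means no difference. Clcf1 is far above 0 (4.46 and 5.95) and Il11ra1 far below 0 (−4.00 and −3.45) against treated skin, and Lif (2.51) and Lifr (−1.87) mark the ends between tumor genotypes.

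Whether the genotype difference itself depended on the stage was tested as an interaction. Between tumor and treated skin edgeR called 0 of 10 members, with 0.0118% of 17017 genes called. Lif had an interaction of 1.67 ± 0.69 on the log2 scale (adjusted p = 0.328), the single member under 0.05 before adjustment, and DESeq2 called 0. Clcf1 had 1.52 ± 0.74, Lifr −2.07 ± 0.99 and Osmr −1.56 ± 0.72, with adjusted p of 0.406, 0.396 and 0.38. Without tumor fl/fl replicate 1, Osmr was called (−2.01, adjusted p = 0.0262), with 7.53% of all genes. Between treated and mock skin, and between tumor and mock skin, edgeR called 0 of 10 members, with 0% of 17694 genes and 0% of 17388 genes called, 0 members with an unadjusted p under 0.05 and 0 by DESeq2.

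Against treated skin, the CLCF1-binding receptor did not rise with its ligand. Cntfr, which encodes it, was at 32.5 to 85.6 CPM in treated skin and at 6.08 to 17.4 CPM in tumors, and fell in tumors against treated skin in fl/fl (log2FC −1.85, edgeR adjusted p = 0.00385) and ΔEP (−2.94, adjusted p = 0.00116). In mock skin Cntfr was at 70.4 and 67.7 CPM in replicate 1 of each genotype and at 1.06 to 2.88 CPM in the other mock libraries.

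Other genes of the pathway were counted as lists. Against treated skin, 18% of all genes tested were called in fl/fl tumors (7.5% higher) and 26% in ΔEP tumors (10.5% higher). Of 8 genes on the list of other ligands, 2 were tested in fl/fl tumors against treated skin and 1 in ΔEP, and 0 were called in either by edgeR. Osm, Il27, Ebi3 and Il31 did not exceed 0.983 CPM in any library. Of 4 other receptors, 2 were tested in fl/fl, Cntfr and Il31ra, and both were lower (Il31ra −1.88, edgeR adjusted p = 0.027), and 1 was tested in ΔEP, Cntfr. Of 8 kinases, STATs and a phosphatase, 1 was higher in each genotype, the kinase gene Jak1 (1.11, adjusted p = 0.0108 in fl/fl, and 1.10, adjusted p = 0.0282 in ΔEP).

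Of 4 other inhibitors of JAK and STAT signalling, Socs1 was higher in fl/fl tumors against treated skin (1.41, edgeR adjusted p = 0.0252), and Socs1 (1.59, adjusted p = 0.00427) and Socs2 (1.66, adjusted p = 0.0059) in ΔEP. Of 12 genes known to respond to STAT3, 11 were tested. In fl/fl tumors 4 were higher, Bcl3 (1.72), Pim1 (1.83), Mcl1 (1.03) and Timp1 (2.47), and the survival gene Bcl2l1 was lower (−1.30). In ΔEP tumors 4 were higher, Bcl3 (1.44), Pim1 (2.13), Timp1 (3.09) and the cyclin gene Ccnd1 (1.57). Over all genes tested, 7.5% were called higher in fl/fl and 10.5% in ΔEP. Pim1, a kinase gene, was at 57.9 to 119 CPM in skin and 202 to 522 CPM in tumors. Between ΔEP and fl/fl tumors edgeR called 0 genes in any of these lists. The median log2FC of the STAT3-responsive genes was 0.68 in fl/fl and 0.44 in ΔEP tumors against treated skin, and −0.02 and −0.03 over all genes. Socs3, a STAT3 target that is not on this list, went the other way without a call. Its log2FC was −0.79 ± 0.40 in fl/fl (edgeR adjusted p = 0.178) and −0.47 ± 0.45 in ΔEP (adjusted p = 0.441). Without tumor fl/fl replicate 1 the same number of STAT3-responsive genes was called in fl/fl, with a median of 0.45, and Stat3 itself was called higher (1.09, edgeR adjusted p = 0.00384).

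The pathway calls differed in how they held, in alternatives that were added after seeing the data. Those on Pim1 in both genotypes and on Socs1, Socs2 and Timp1 in ΔEP held in all 12, and those on Cntfr in both genotypes and Ccnd1 in ΔEP were lost only in a single fit of all groups. In fl/fl mice, leaving out 1 library ended the call on Bcl2l1 (treated replicate 1), Bcl3 (treated replicate 2 or 3), Mcl1 (treated replicate 1 or tumor replicate 2), Jak1 (treated replicate 1 or 3, or tumor replicate 2), Il31ra (treated replicate 1 or 2, or tumor replicate 2 or 3), Timp1 (any treated replicate) and Socs1 (any treated replicate, or tumor replicate 1 or 3). In ΔEP mice it ended the call on Bcl3 (treated replicate 2 or any tumor) and Jak1 (treated replicate 1 or 2, or any tumor).

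Promoters were searched for motifs of the factors downstream of TPA and of these receptors. The RefSeq promoter table of GRCm38, 250 bases before to 50 after each gene start, held an entry for 9 of the 10 members, Clcf1 being the exception. Gene starts here are those of RefSeq, and for Il11 and Socs3 they lie inside the GENCODE spans given above. The AP-1 motif TGANTCA, which reads the same on both strands, was in the promoters of Lif, Il11, Il6 and Osmr and in 7.81% of all 32851 promoters. In Osmr the open base N was T (TGATTCA), and in Lif, Il11 and Il6 it was C or G. Il11 had 2 promoter entries, and the motif was not in both. The STAT motif TTCNNNGAA, also its own reverse complement, was in that of Socs3 and in 8.3% of all. The sites of Lif (chr11:4257332-4257354, plus strand, −228 from the gene start), Il11 (chr7:4778225-4778247, minus strand, −98) and Socs3 (chr11:117969504-117969528, minus strand, −154) are shown with the motif in capitals, Lif and Il11 because they rose in ΔEP tumors and Socs3 as the known STAT3 target.
Lif: gtcagctgTGACTCAggccatag
Il11: agggagggTGAGTCAggatgtgt
Socs3: aaccagccTTCTTAGAAgggagggg
A match of letters is no proof of a bound site.

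Across the 17 libraries the 3 ligands that were high in tumors went together. On log2 CPM, Pearson's r was 0.95 between Clcf1 and Il11, 0.93 between Lif and Il11 and 0.86 between Lif and Clcf1, a description over libraries that share their stages and genotypes. Il6 had r of 0.27 with Lif and −0.05 with Clcf1, and Il11ra1 had −0.89 with Clcf1. Il6ra and Socs3 had an r of 0.87 with each other. Over the 14 libraries left without the 3 that stood apart, the values among the 3 ligands were 0.96, 0.95 and 0.88, Il11ra1 had −0.88 with Clcf1, and Il6 had 0.40 with Lif and 0.12 with Clcf1. Among 18252 genes the most like Lif were Plau (0.95), Ctsl (0.94) and Pstpip1 (0.93), and the most like Clcf1 were Ereg (0.98), Tes and Areg (0.97). Ereg and Areg encode ligands of the EGF receptor, and Plau encodes urokinase. Clcf1, Ugcg and Lrrfip1 were the most like Il11, each at 0.95. For the receptors the leading genes were Ssbp2 for Lifr (0.95), Cxadr for Osmr (0.95), Net1 for Il6st (0.96), Scin for Il6ra (0.97), and Homez and Foxn1 for Il11ra1 (0.96). For Il6 it was 3110045C21Rik (0.83, and 0.73 over those 14 libraries).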

How the data were processed

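RNA of sorted mouse epidermal cells was sequenced by the authors from low-input libraries, and the deposited table holds raw read counts per gene for 18 columns. The submitters' processing notes name Trimmomatic 0.36, STAR 2.5.3, HTSeq 0.9.1, DESeq2 and the build mm10. The strand setting, annotation release and treatment of duplicate reads are not given in the sources used here. Samples were grouped by the labels. CPM were computed on library sizes scaled by TMM (edgeR 4.0.16, limma 3.58.1, R 4.3.3). The main test was edgeR's quasi-likelihood F test on the libraries of the groups compared, with edgeR's default filter on low counts and Benjamini-Hochberg adjustment over all genes tested, for 9 comparisons of 2 groups and 3 interactions. Calls required a log2FC over 1 in size with an adjusted p under 0.05. The SE beside an edgeR log2FC is the size of the log2FC divided by the square root of F, an approximation. Log2 CPM used a prior count of 2. The script was tested on simulated data.

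The members and gene lists were chosen with earlier results of these data known. Genes named were the members, Zfp36, genes of fixed pathway lists that were called or that a result turned on, and for each member up to 3 genes with the highest r. Alternatives were DESeq2 1.42.0, its size factors, no filter, a filter at a mean count of 10, a single fit of all groups, a replicate block and leaving out each library. Sums over 4 further marker lists were computed: fibroblasts (455 to 1852 CPM in skin, 85.7 to 457 in tumors), endothelium (9.64 to 41.3), hair follicle (1026 to 3432) and melanocytes (8.85 to 247). 3′UTRs came from the GENCODE vM21 transcripts. Some genes that met the naming rule are not reported here.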

Additional observations from a re-analysis of the deposited data

How the results depend on the processing

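Of the counts of members called, 146 alternatives stayed within 1.5 times the main count and 19 did not. The 146 include alternatives in which a main count of 0 stayed at 0. With DESeq2 the count went from 0 to 2 between tumor genotypes, from 2 to 5 in fl/fl tumors against mock skin and from 2 to 4 against treated skin. With no filter on low counts it was 4, 6 and 4 in the same 3 comparisons, 7 rather than 4 in ΔEP tumors against mock skin, 1 rather than 0 in treated ΔEP against mock skin (Il6ra) and 4 rather than 0 in the interaction of tumor and treated skin. A single fit of all groups gave 5 in fl/fl tumors against mock skin. Leaving out 1 library gave 0 to 3 between tumor genotypes, 0 to 5 in treated fl/fl against mock skin, 1 to 7 in fl/fl tumors against mock skin, 2 to 4 against treated skin, 0 to 7 in ΔEP tumors against mock skin and 0 to 1 in that interaction. The lone mock ΔEP library left in such fits is assumed to vary like the others. The cause of these shifts was not tested. No log2FC given in the text for the members, Zfp36 or, in tumors against treated skin, the called pathway genes changed sign.

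With the replicate number as a block, 3 rather than 4 members were called in ΔEP tumors against mock skin (Il11 2.07, adjusted p = 0.138), and Zfp36 between tumor genotypes had an adjusted p of 0.0756. Every other count of members called was the same under the block, but calls over all genes were not: in mock skin the block called 110 genes between genotypes rather than 0, Zfp36 among them (−3.72, adjusted p = 7.86e-33), with correlations of 0.569 and 0.782 over the 2 mock pairs. Same-numbered libraries correlated from −0.546 to 0.782 in their deviations from the group means, so the numbers do not pair the samples throughout. Leaving out both mock replicates 1, chosen after seeing the data, gave Zfp36 −4.06 in mock skin (adjusted p = 0.0418), and DESeq2 gave an adjusted p of 0.000415 there. Il11, with 1 to 65 counts a library, and Il11ra1 in tumors are limited by depth. The same genes held the heptamer, the nonamer and the pentamer when any annotated transcript was searched.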
